A study of Mus musculus with 4 samples.

Results

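Expression of 10 genes, Gpr15, Nrp2, Tmem37, Fam19a3, Pak6, Lpin1, Myo6, Drc1, Dmrta1 and Wdr95, was examined in spleen RNA of vcS5 transgenic mice and wild-type mice. They are 10 of the 14226 rows of the deposited table and were picked by symbol from that table, for their large excess in vcS5 over wild type and because they are not known genes of the cytotoxic programme. The size of that excess is therefore what chose them, so their levels are given as a description, with no test and no p-value. The vcS5 group held 2 libraries of splenocytes (the cell suspension of a whole spleen) from C57BL/6N mice with the genotype label vcS5 +/T, both from mice of line1. Wild-type splenocytes of the same strain gave the other 2 libraries. The title of the series names STAT5 with an activating mutation and peripheral T cell lymphoma, and comparing the groups asks which spleen transcripts go with carrying the transgene. The promoter of the transgene and the age and sex of the mice are not given in the sources used here, and since 1 transgenic line was measured, effects of the line and of the transgene cannot be told apart.

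STAT5 carries signals of cytokine receptors, among them those of interleukin 2, interleukin 7 and interleukin 15, to the nucleus, where it binds DNA and controls the survival, growth and differentiation of lymphocytes. The 10 genes belong to unrelated families. Gpr15 is the member best known in T cells, as a receptor that guides them to the large intestine. Several of the others are known mainly outside the immune system, in cilia, in the inner ear, in fat tissue or in the nervous system.

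Levels are in FPKM, read counts normalised for transcript length and sequencing depth. Read totals of the libraries are not known. From the steps between low values, 1 read was worth 1.11 and 1.203 times as much in vcS5 replicates 1 and 2, and 1.18 times as much in wild-type replicate 2, as in wild-type replicate 1. Stat5a, a gene of the STAT5 family, had 105.2 and 123.0 FPKM in vcS5 and 13.9 and 17.0 FPKM in wild type, a 7.39-fold excess in vcS5. Its row runs into the locus of Stat3 and holds transgene and endogenous reads alike, if both are present. Stat5b had 23.4 and 24.5 FPKM in vcS5, and 22.0 and 26.5 FPKM in wild type. Markers of T cells, B cells, natural killer cells, neutrophils, macrophages and red cells were all detected, and no measured marker was at 0 in any library. Wild-type replicate 1 stood apart in its neutrophil markers, which summed to 6558 FPKM, against 1986 FPKM in wild-type replicate 2. In vcS5 they summed to 1068 and 1035 FPKM.

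All 10 genes were higher in both vcS5 libraries than in either wild-type library, a pattern that 26.9% of all rows showed, and which the choice of genes fixed here. The ratio of mean FPKM ran from 3.71 for Nrp2 to 36.3 for Drc1, with a median of 17.1. Summed over the 10 genes, the vcS5 libraries had 213.0 and 259.0 FPKM and the wild-type libraries 17.9 and 17.7 FPKM. On the log2(FPKM + 1) scale, which understates changes of low rows, the median difference was 2.90 for these genes and 0.00 for all rows. Ranked by that difference, they stood between place 32, held by Drc1, and place 307, held by Nrp2, so they are not the top of the table without gaps. The genes fell into 2 ranges of level in vcS5. Lpin1, Gpr15, Myo6 and Drc1 averaged 25.4 to 58.0 FPKM there, and the other 6 averaged 6.98 to 14.3 FPKM, while the median row of the table had 12.5 FPKM in vcS5 and 12.3 FPKM in wild type.

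**Figure D1:**
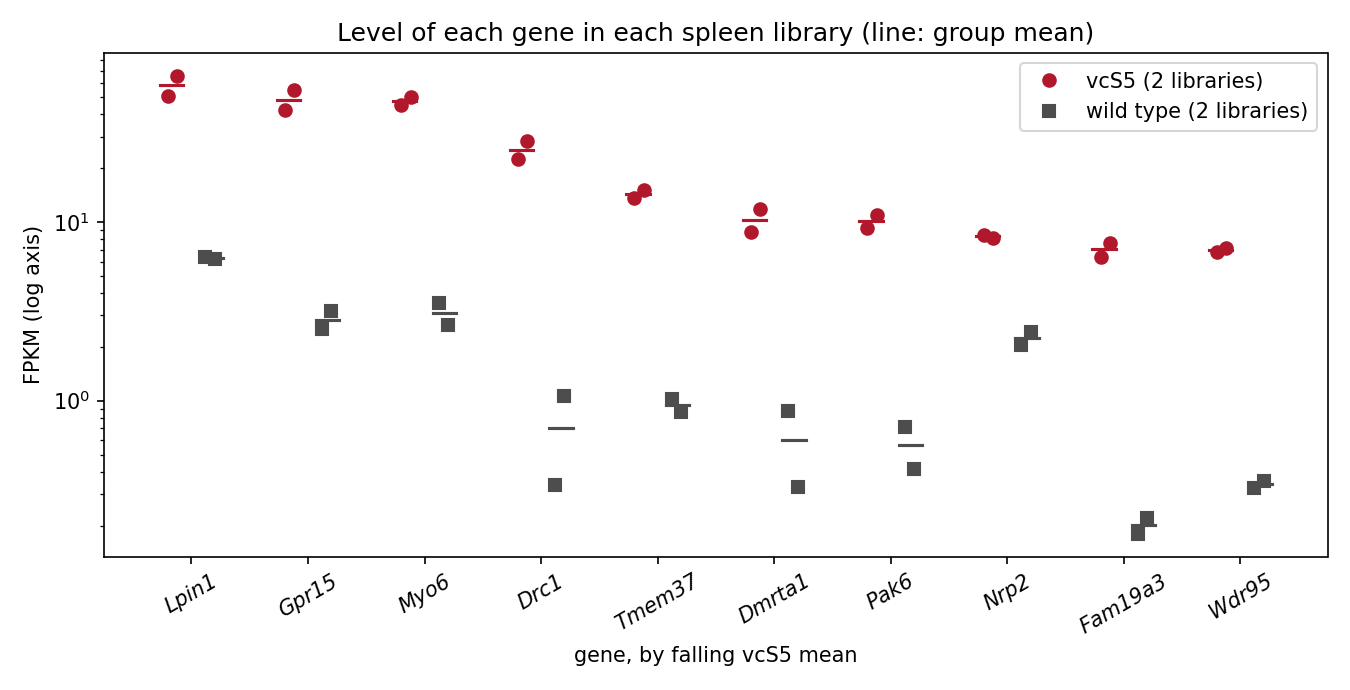
FPKM of the 10 genes on a log10 axis, with a point for each of the 2 vcS5 and the 2 wild-type libraries and a bar for each group mean. Every vcS5 point lies above both wild-type points of its gene, with the widest distance for Drc1 (36.3-fold) and the smallest for Nrp2 (3.71-fold).

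Gpr15 encodes a G protein-coupled receptor of the cell surface that directs T cells, regulatory T cells included, to the lining of the large intestine. It had 42.2 and 54.6 FPKM in vcS5, against 2.51 and 3.16 FPKM in wild type, that is 48.4 ± 8.76 FPKM in vcS5 and 2.84 ± 0.457 FPKM in wild type (SD, n = 2 each), a 17.1-fold excess. Both vcS5 libraries were far above both wild-type libraries. Its level exceeded that of 82.8% of all rows in vcS5 and of 20.7% in wild type. The row lies on mm10 chromosome 16, 58715351 to 58718982, minus strand. In the GENCODE annotation the end of Gpr15 shares 204 bases with Cpox, a haem synthesis gene on the opposite strand, and the libraries do not record strand. The row is wider than the gene, running 2.08 kb past the end of Gpr15 in GENCODE, and 2.29 kb of it lie within the span of Cpox, so reads of these genes are not told apart there. Cpox itself, in a separate row, had 15.2 and 18.3 FPKM in vcS5, and 21.6 and 15.5 FPKM in wild type.

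Nrp2 encodes neuropilin 2, a co-receptor for semaphorins, which guide axons and cells, and for vascular endothelial growth factors (VEGF). It had 8.49 and 8.16 FPKM in vcS5 and 2.06 and 2.43 FPKM in wild type, with means of 8.32 ± 0.230 FPKM in vcS5 and 2.24 ± 0.262 FPKM in wild type (SD, n = 2 each). The 3.71-fold excess was the smallest of the 10 genes, and its vcS5 libraries differed least from each other, by 1.04-fold. The row covers chromosome 1, 62703285 to 62819268, plus strand. An antisense gene, Gm29083, and another GENCODE gene of the plus strand, Gm37121, overlap it.

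The promoters of the 2 receptors are shown because the row of each begins within 110 bases of its RefSeq start and because their bases and motif letters differ. They are the 250 bases before the start in RefSeq, build GRCm38.p6, Gpr15 at chr16:58718873-58719122 on the minus strand and Nrp2 at chr1:62703067-62703316 on the plus strand. Capitals mark letters that match the core of a binding motif on either strand. The motifs searched were TTCNNNGAA for STAT5, TGTGGT for RUNX factors, TCACACC for T-box factors and GCGTG for the aryl hydrocarbon receptor.
Gpr15: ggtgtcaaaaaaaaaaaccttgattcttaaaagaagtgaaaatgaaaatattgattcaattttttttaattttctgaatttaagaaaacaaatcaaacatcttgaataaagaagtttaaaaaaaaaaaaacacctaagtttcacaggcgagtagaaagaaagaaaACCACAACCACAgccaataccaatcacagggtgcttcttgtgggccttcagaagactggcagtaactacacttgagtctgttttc
Nrp2: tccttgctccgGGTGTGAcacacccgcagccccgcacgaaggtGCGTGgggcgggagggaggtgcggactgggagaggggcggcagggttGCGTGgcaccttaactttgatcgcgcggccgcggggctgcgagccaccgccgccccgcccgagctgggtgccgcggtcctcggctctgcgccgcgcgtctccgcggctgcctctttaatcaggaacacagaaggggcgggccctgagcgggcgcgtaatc
The Gpr15 promoter has a GC content of 31.6%, the lowest of the 10 windows found for 9 of the 10 genes, and that of Nrp2 has 72.4%, while the median of all promoters was 52.4%. Gpr15 carries the RUNX letters in a pair, beginning 85 and 79 bases before the start, both read on the opposite strand. Nrp2 carries the T-box letters 239 bases before the start and the aryl hydrocarbon receptor letters 207 and 160 bases before it. The row of Gpr15 begins 110 bases before the RefSeq start, inside the printed window.

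Tmem37 encodes a membrane protein related to the gamma subunits of voltage-gated calcium channels. It had 13.6 and 15.1 FPKM in vcS5, and 1.03 and 0.866 FPKM in wild type, which gives 14.3 ± 1.04 FPKM in vcS5 and 0.947 ± 0.115 FPKM in wild type (SD, n = 2 each). The libraries of each group lay close together and the groups were 15.1-fold apart. The row covers chromosome 1, 120067377 to 120074074, minus strand.

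Fam19a3, named Tafa3 in RefSeq, encodes a small secreted protein of a chemokine-like family studied mainly in the brain. It had 6.39 and 7.66 FPKM in vcS5, against 0.180 and 0.221 FPKM in wild type. Its means of 7.03 ± 0.895 FPKM in vcS5 and 0.200 ± 0.0284 FPKM in wild type (SD, n = 2 each) were 35.04-fold apart, close to the figure for Drc1. In wild type it was the lowest of the 10 genes and stood above 0.464% of all rows, so the fold divides by a value near the low end of the table. Its row (chromosome 3, 104767406 to 104786018, minus strand) is merged with that of Ppm1j, a protein phosphatase gene on the opposite strand. The GENCODE spans of these genes share 785 bases at their ends, and without strand their reads are not told apart there. Another GENCODE gene of the minus strand, Gm43584, also overlaps the row.

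Pak6 encodes a p21-activated kinase, a protein kinase of the group that acts with the small GTPases Cdc42 and Rac on the cytoskeleton, and its human counterpart is known to bind the androgen receptor. It had 9.27 and 10.9 FPKM in vcS5 and 0.715 and 0.414 FPKM in wild type, a 17.9-fold excess of 10.1 ± 1.14 FPKM in vcS5 over 0.564 ± 0.213 FPKM in wild type (SD, n = 2 each). The wild-type libraries differed from each other by 1.73-fold, the vcS5 libraries by much less. The row covers chromosome 2, 118663285 to 118698020, plus strand. Of its 2 RefSeq promoters, the one nearer to the row's own start, at chr2:118663327-118663576 on the plus strand of GRCm38.p6, is shown because it is the other member promoter with the RUNX letters, here in a single copy 81 bases before the start and in capitals.
Pak6: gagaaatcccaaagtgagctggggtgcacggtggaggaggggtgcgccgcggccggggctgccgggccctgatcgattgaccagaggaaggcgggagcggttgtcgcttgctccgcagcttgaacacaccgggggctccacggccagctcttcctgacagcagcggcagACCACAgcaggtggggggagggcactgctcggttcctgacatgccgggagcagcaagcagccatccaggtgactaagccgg
This window has a GC content of 67.2%, against 31.6% for Gpr15, and the row begins 292 bases before the RefSeq start.

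Lpin1 encodes lipin 1, an enzyme that turns phosphatidic acid into diacylglycerol on the way to triglycerides and phospholipids, and which also acts in the nucleus as a coactivator of PPAR factors. It was the most abundant of the 10 genes in every library. Its FPKM was 50.3 and 65.6 in vcS5, against 6.33 and 6.17 in wild type, with means of 58.0 ± 10.8 FPKM in vcS5 and 6.25 ± 0.109 FPKM in wild type (SD, n = 2 each), a 9.27-fold excess. The row covers chromosome 12, 16535649 to 16589774, minus strand, and its start lies 21192 bases inside the start that RefSeq gives.

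Myo6 encodes myosin VI, the motor that moves along actin filaments towards their minus end, carries endocytic cargo and is needed by the hair cells of the inner ear. It had 44.8 and 49.8 FPKM in vcS5, and 3.52 and 2.65 FPKM in wild type. The group means were 47.3 ± 3.53 FPKM in vcS5 and 3.08 ± 0.617 FPKM in wild type (SD, n = 2 each), 15.3-fold apart with no overlap. The row covers chromosome 9, 80165031 to 80311729, plus strand, and an antisense gene, Gm27227, lies within it.

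Drc1 encodes a subunit of the nexin-dynein regulatory complex, which links the outer microtubules of motile cilia and tunes their beating. It had 22.4 and 28.4 FPKM in vcS5, against 0.339 and 1.06 FPKM in wild type, or 25.4 ± 4.22 FPKM in vcS5 and 0.699 ± 0.509 FPKM in wild type (SD, n = 2 each). The 36.3-fold difference was the largest ratio of the 10 genes. The wild-type libraries differed from each other by 3.12-fold, more than for any other of these genes, so the size of that ratio is uncertain. Drc1 stood above 68.4% of all rows in vcS5 and above 1.48% in wild type. The row covers chromosome 5, 30281388 to 30366708, plus strand, and another GENCODE gene of that strand, Gm43755, overlaps it.

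Dmrta1 encodes a transcription factor with a DM domain, the DNA-binding fold of the doublesex family. It had 8.75 and 11.8 FPKM in vcS5 and 0.870 and 0.330 FPKM in wild type, that is 10.3 ± 2.13 FPKM in vcS5 and 0.600 ± 0.382 FPKM in wild type (SD, n = 2 each). The ratio was 17.1-fold, with a 2.64-fold difference between the wild-type libraries. Its row covers chromosome 4, 89679436 to 89694772, plus strand, and begins 8762 bases before the RefSeq start.

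Wdr95 is named for its WD repeats, a fold that holds proteins together. It had 6.80 and 7.17 FPKM in vcS5, against 0.323 and 0.358 FPKM in wild type, with means of 6.98 ± 0.261 FPKM in vcS5 and 0.340 ± 0.0246 FPKM in wild type (SD, n = 2 each). Its libraries lay close together in both groups, 20.5-fold apart. The row (chromosome 5, 149489056 to 149611894, plus strand) starts 39.6 kb before the gene in GENCODE and also spans an antisense gene, Gm15997, and a pseudogene, Gm2566, so reads of these are not told apart from those of Wdr95.

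In wild type, 6 of the 10 genes averaged under 1 FPKM (Drc1, Tmem37, Fam19a3, Pak6, Dmrta1 and Wdr95), and 4 of them, Fam19a3, Wdr95, Pak6 and Dmrta1, were under 1 FPKM in both libraries. The table holds rows with a mean of at least 1.00 FPKM over the 4 libraries, so a gene this low in wild type could only be in it through vcS5. All 10 genes passed that filter, 8 of them with a mean of 5 FPKM or more, and the count says nothing about the genes beyond the rule that picked them.

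Across 9 of the 10 genes, the 4 motifs were searched on both strands in the 300 bases from 250 before to 50 after the RefSeq start. The STAT5 letters were found for 1 gene, Fam19a3, where they begin 8 bases past the start, and for 8.30% of the 32851 promoters of the table. The RUNX letters were found for 2 genes, Gpr15 and Pak6, and in 16.8% of all promoters. T-box letters and aryl hydrocarbon receptor letters were found for Nrp2 alone among these genes, and in 3.98% and 32.4% of all promoters. The RefSeq start lay within 1 kb of the start of the row for 6 genes, and 8471 bases or more away for Fam19a3, Lpin1 and Dmrta1. A match is a stretch of letters and not a binding site, and its absence from a window says nothing about the factor.

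The excess of the members was next set beside that of Cd8a, which encodes a chain of the CD8 co-receptor of cytotoxic T cells, because T cell genes differed between the groups. Cd8a had 390.8 and 444.9 FPKM in vcS5 and 51.1 and 62.9 FPKM in wild type, a 7.33-fold excess. The 10 CD8 T cell markers summed to 3781 and 4211 FPKM in vcS5, against 618 and 549.9 FPKM in wild type, and 8 of them rose and 0 fell by limma at an adjusted p under 0.05, which 4.59% of all rows passed upwards and 4.13% downwards. Of 18 markers of all T cells 12 rose and 1 fell, Trat1, with sums of 3032 and 3886 FPKM in vcS5 and 1129 and 1504 FPKM in wild type. Of 9 markers of CD4 and regulatory T cells, 1 rose and 3 fell, with sums of 128.8 and 107.8 FPKM in vcS5, against 162.9 and 175.7 FPKM in wild type. The 16 B cell markers, in 17 rows, had 0 rises and 16 falls, with sums of 1867 and 1803 FPKM in vcS5 and 4345 and 5269 FPKM in wild type. Natural killer cell markers, 12 rows, had 4 rises and 4 falls, and summed to 609.5 and 472 FPKM in vcS5 and 372 and 289.6 FPKM in wild type. Such counts rest on few libraries. Over all rows limma called 653 rises, against 72 without vcS5 replicate 1, 52 without vcS5 replicate 2, 121 without wild-type replicate 1 and 164 without wild-type replicate 2. The part of these shifts in the levels of the 10 genes was not tested, and in RNA of a whole spleen more cells of a type and more RNA per cell cannot be told apart.

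The fold of 9 of the 10 genes was above that of Cd8a, as it was for 0.699% of the rows with a wild-type value. Divided by Cd8a in the same library, the same 9 genes were higher in both vcS5 libraries than in both wild-type libraries, which held for 0.731% of all rows. The rule used this contrast, so the count is a description. Given per 1000 FPKM of Cd8a, Drc1 had 57.3 and 63.8 in vcS5 and 6.63 and 16.8 in wild type, a 5.72-fold higher ratio. For Fam19a3 the ratio was 16.4 and 17.2 in vcS5, against 3.53 and 3.51 in wild type, 4.77-fold higher. With all libraries these were the largest changes of the ratio among the 10 genes, but that of Drc1 rests on its uneven wild-type libraries. Its log2 change of 2.52 was 1.84 without wild-type replicate 1 and 3.19 without wild-type replicate 2, and at 1.84 it was below those of Fam19a3, Dmrta1 and Pak6. The value of Fam19a3 stayed between 2.22 and 2.29 with each library left out. It depended more on how low values are treated. With 0.1 FPKM added to both genes before dividing, it was 1.69, against 2.27 for Drc1.

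Between these and the lowest, 6 genes had ratios to Cd8a that were 2.06-fold to 2.79-fold higher in vcS5. Gpr15 belonged to them, with 107.9 and 122.7 per 1000 FPKM of Cd8a in vcS5 and 49.2 and 50.2 in wild type, 2.32-fold higher. Myo6 had 114.6 and 111.9 in vcS5, against 68.8 and 42.1 in wild type, 2.105-fold higher. The wild-type spread was wide for Dmrta1, with 22.4 and 26.4 in vcS5 and 17.0 and 5.24 in wild type, and for Pak6, with 23.7 and 24.5 in vcS5 and 14.0 and 6.58 in wild type. The log2 change of Dmrta1 was 2.21 without wild-type replicate 1 and 0.51 without wild-type replicate 2, against 1.365 with all libraries. Lpin1 followed Cd8a most closely. Its ratio of 128.8 and 147.4 in vcS5, against 123.8 and 98.1 in wild type, was 1.25-fold higher, and the nearest libraries of the groups almost met.

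Nrp2 went the other way, with 21.7 and 18.3 per 1000 FPKM of Cd8a in vcS5 and 40.3 and 38.6 in wild type, 1.98-fold lower. Its level was higher in vcS5, but by less than that of Cd8a. Set beside Cd8b1, the other CD8 chain, which was 6.87-fold higher in vcS5, the ratios had a median log2 change of 1.35. Nrp2 was lowest, at -0.90. Set beside Cd3e, a chain of the T cell receptor complex that was 2.75-fold higher in vcS5, the median was 2.69. Nrp2 was again lowest, at 0.44. The rule used this contrast, so these values too are a description. For the lowest genes the ratio depends on how low values are treated. With 1 FPKM added to both genes before dividing, an alternative chosen after seeing the data, 5 of the 10 genes had a higher ratio to Cd8a, and Fam19a3, Wdr95, Pak6 and Dmrta1 were at log2 changes of -0.12, -0.28, -0.03 and -0.03.

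**Figure D2:**
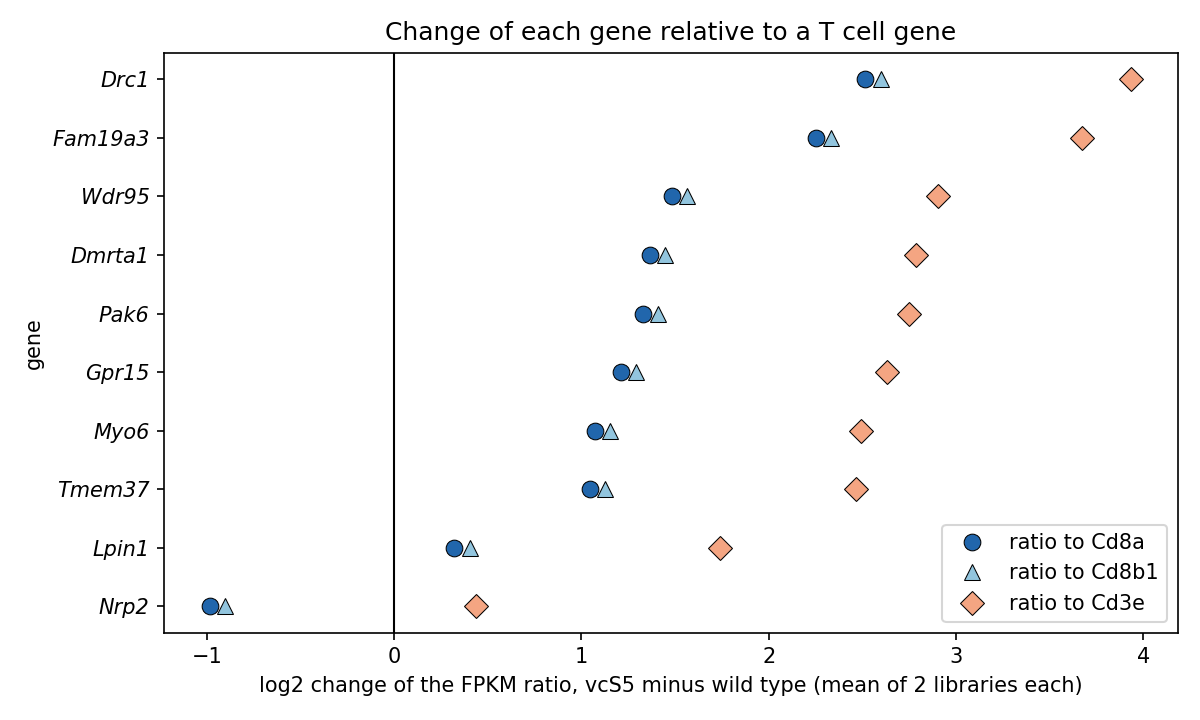
Log2 change (vcS5 minus wild type) of the ratio of each of the 10 genes to Cd8a, Cd8b1 and Cd3e, computed from FPKM with no value added. With all libraries, Drc1 lies farthest to the right for each of the 3 genes, Lpin1 lies near 0 for Cd8a at 0.32, and Nrp2 lies at -0.98 for Cd8a and at 0.44 for Cd3e.

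Most relatives and partners of the 10 genes did not pass the test, and those that did moved in both directions. In 13 lists of 219 entries, from homing receptors to semaphorins, 122 rows were measured, of which 7 rose and 10 fell by limma at an adjusted p under 0.05, that is 5.74% and 8.20%, beside 4.59% and 4.13% of all rows, or 8.72% in either direction. Their median log2 change was -0.11, beside 0.00 for all rows. By the q-value in the authors' deposited table, 8 of the 122 rose and 16 fell, where 5.31% and 6.14% of all rows did. The calls are fragile. With vcS5 replicate 1 or vcS5 replicate 2 left out 0 rises were called, with wild-type replicate 1 or wild-type replicate 2 left out 1 was called, and 0 falls were called in each of these 4 cases.

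Among 17 measured receptors of homing to gut and other mucosa, 1 rose and 2 fell, with a median of 0.08. Cxcr6, a chemokine receptor of tissue-resident and activated T cells, had 33.3 and 38.2 FPKM in vcS5, against 16.6 and 15.1 FPKM in wild type (log2 change 1.12, limma adjusted p = 0.0168). Ccr6, found on B cells and on a subset of helper T cells, fell to 24.4 and 21.3 FPKM in vcS5, against 54.1 and 48.5 FPKM in wild type (log2 change -1.13, limma adjusted p = 0.0168). Ccr9, the receptor that guides lymphocytes to the small intestine, had 3.98 and 4.07 FPKM in vcS5 and 8.01 and 8.83 FPKM in wild type (log2 change -0.91, limma adjusted p = 0.0300). Ccr9 is also a marker of plasmacytoid dendritic cells. The rows of Cxcr6 and Ccr9 have the same merged span, chromosome 9, 123635388 to 123851899, plus strand. In the authors' deposited table the q-values of Cxcr6 and Ccr9 were 0.0696 and 0.426. Of 9 measured genes known to act on Gpr15, 1 rose. This was Gata3, a transcription factor of T cells, at 20.6 and 31.6 FPKM in vcS5 and 8.26 and 7.01 FPKM in wild type (log2 change 1.62, limma adjusted p = 0.0218). Ahr, the aryl hydrocarbon receptor, had 2.39 and 1.29 FPKM in vcS5 and 5.25 and 4.35 FPKM in wild type and did not pass (limma adjusted p = 0.0699). By the authors' q-value 2 of the 9 rose and 1 fell, and the fall was that of Ahr (q = 0.00185).

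Of 25 semaphorins and VEGF ligands 8 were measured, and 2 rose and 2 fell. Sema4f, a membrane semaphorin, rose to 15.01 and 15.9 FPKM in vcS5, against 1.95 and 3.01 FPKM in wild type, 6.24-fold higher (log2 change 2.26, limma adjusted p = 0.00755). Sema4a, an immune semaphorin, had 143.3 and 192.1 FPKM in vcS5 and 40.9 and 51.9 FPKM in wild type (log2 change 1.83, limma adjusted p = 0.0132). Both were the largest shifts among the relatives of the 10 genes. Sema7a, which is anchored to the membrane by a lipid, fell to 4.90 and 5.37 FPKM in vcS5, against 13.6 and 15.6 FPKM in wild type (limma adjusted p = 0.0127). Sema4b fell by 0.79 on the log2 scale (limma adjusted p = 0.0429, and 0.0573 without the variance trend). On the receptor side, 7 of 13 neuropilins, plexins and VEGF receptors were measured, and 0 passed (3 at an unadjusted p under 0.05, and 1 fall by the authors' q-value). Nrp1, the paralog of Nrp2, had 5.47 and 4.04 FPKM in vcS5, and 7.05 and 4.29 FPKM in wild type, so its groups overlapped (limma adjusted p = 0.721).

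Among 15 measured unconventional myosins 2 rose and 4 fell. Myo1e fell to 11.3 and 11.7 FPKM in vcS5, against 28.6 and 33.5 FPKM in wild type (log2 change -1.36, limma adjusted p = 0.0113), and Myo7a, Myo1c and Myo5a also fell. Myo5a, a cargo motor like Myo6 that moves to the other end of actin filaments, had 27.1 and 21.6 FPKM in vcS5 and 45.2 and 50.1 FPKM in wild type (limma adjusted p = 0.0332). Myo3b rose at a low level, with 3.65 and 3.70 FPKM in vcS5 and 1.47 and 0.918 FPKM in wild type (limma adjusted p = 0.0407), and so did Myo1f, a myosin of leukocytes, with 71.3 and 82.6 FPKM in vcS5 and 46.1 and 46.4 FPKM in wild type (limma adjusted p = 0.0456). The call of Myo1f is weak, with a q-value of 0.0882 in the authors' deposited table and a limma adjusted p of 0.0600 without the variance trend. Of 7 measured cargo adaptors of myosin VI, 0 passed (2 at an unadjusted p under 0.05, and 1 fall by the authors' q-value). For Drc1, 4 of 29 entries for the nexin-dynein complex and the axoneme were measured, namely Efcab2, Ift88, Ift57 and Ift172. None of these 4 passed the limma test (1 at an unadjusted p under 0.05, and 0 by the authors' q-value), and Efcab2, a subunit of the same complex, had 2.25 and 1.463 FPKM in vcS5, and 2.05 and 1.86 FPKM in wild type.

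None of the measured enzymes around Lpin1 passed the test upwards. Of 23 measured rows for glycerolipid synthesis and breakdown 0 rose and 1 fell (7 at an unadjusted p under 0.05, and 0 rises and 4 falls by the authors' q-value). The fall was that of Lipe, the hormone-sensitive lipase, which had 5.60 and 5.64 FPKM in vcS5 and 10.1 and 11.1 FPKM in wild type (log2 change -0.81, limma adjusted p = 0.0347). Lpin2 had 22.6 and 22.3 FPKM in vcS5 and 34.3 and 29.7 FPKM in wild type, and did not pass (limma adjusted p = 0.107). Among 6 measured partners of lipin 1 in PPAR control 0 passed (1 at an unadjusted p under 0.05, and 0 by the authors' q-value). Of 17 measured p21-activated kinases and partners 0 passed (2 at an unadjusted p under 0.05, and 1 rise by the authors' q-value). Pak2, the main such kinase of T cells, had 60.8 and 48.6 FPKM in vcS5 and 56.01 and 47.2 FPKM in wild type (log2 change 0.08), and Pak4, of the same subgroup as Pak6, had 17.5 and 19.5 FPKM in vcS5 and 16.3 and 20.0 FPKM in wild type (log2 change 0.03). Pak1 had 2.00 and 2.50 FPKM in vcS5, and 4.54 and 3.18 FPKM in wild type (limma adjusted p = 0.193). Of 9 measured calcium channel subunits, Cacna2d4 rose (log2 change 1.09, limma adjusted p = 0.0466) and Cacna1e fell (log2 change -1.29, limma adjusted p = 0.0276). None of the 4 other FAM19A genes and none of 8 other DMRT genes had a row.

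**Figure D3:**
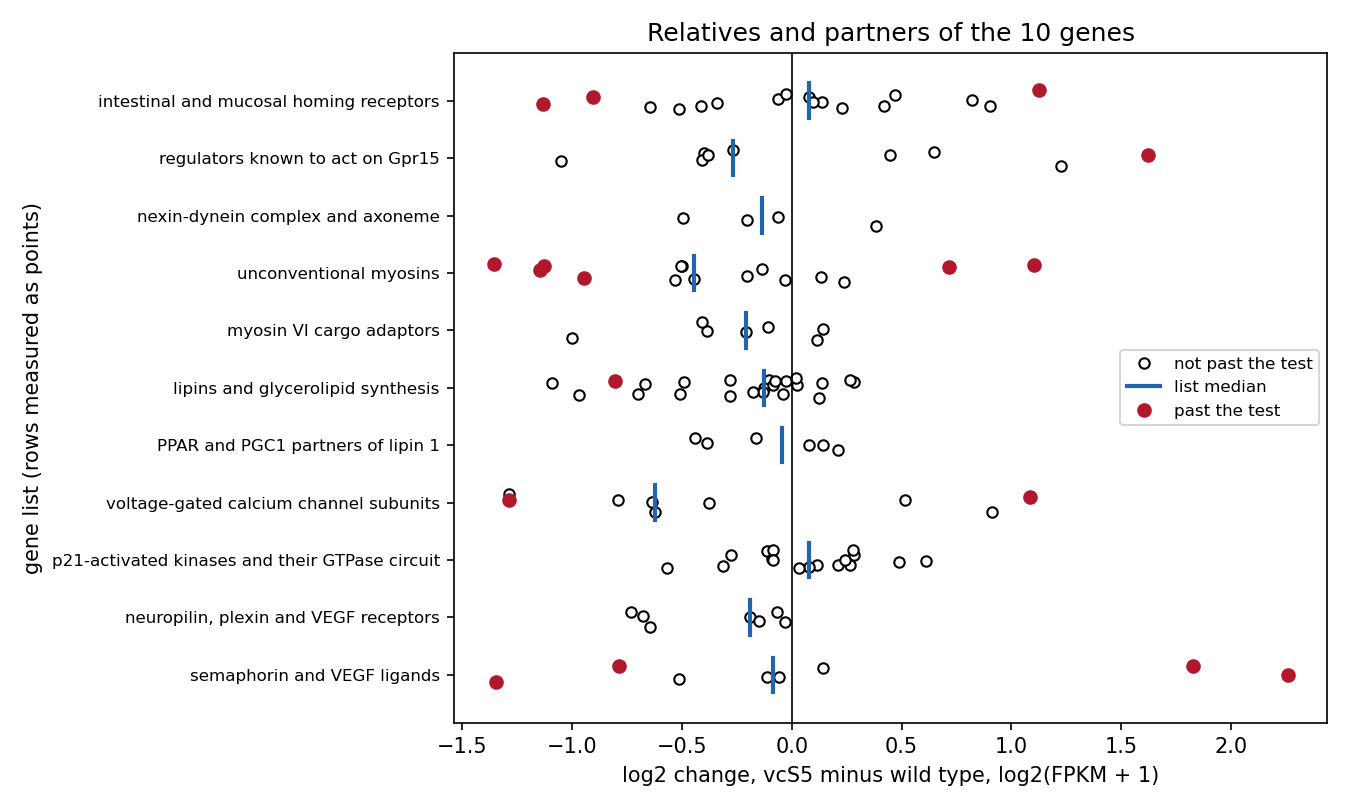
Log2 change, vcS5 minus wild type on the log2(FPKM + 1) scale, of 122 rows in 11 of the 13 lists of relatives and partners, with filled points for rows past the limma test and a bar for each list median. List medians lie between -0.62 and 0.08, and the farthest points to the right are Sema4f at 2.26 and Sema4a at 1.83.

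Rows that lie beside the members in the genome were then examined. Within 100 kb of 8 of the 10 genes lay 24 other rows, and Lpin1 and Dmrta1 had none. By limma 3 rose and 0 fell (5 at an unadjusted p under 0.05, and 2 rises and 0 falls by the authors' q-value), where 4.59% of all rows rose. Of these 3, the row beside Nrp2 could be in the table only through its vcS5 level and adjoins a member, and Ppm1j has the merged row span of Fam19a3, so neither is independent of the choice of genes. Among the remaining 22 rows 1 rose, Cldn25. The other 21 rows had log2 changes between -0.44 and 1.13. The 1.13 is that of an unannotated row upstream of Gpr15. Its wild-type mean was 0.784 FPKM, so it too could be in the table only through vcS5. Most genes beside the members, among them those next to Drc1, Myo6, Tmem37, Wdr95 and Pak6, therefore gave no call.

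The largest neighbouring difference was that of an unannotated row 68 bases downstream of Nrp2, on chromosome 1, 62819337 to 62834637. It had 12.6 and 13.3 FPKM in vcS5, against 0.237 and 0.0577 FPKM in wild type, a log2 change of 3.61. Its wild-type mean is under 1 FPKM, so it had to be high in vcS5 to be in the table, and no p-value is given. GENCODE places Gm4208, a long noncoding RNA of the minus strand, inside it. Without strand, an extended Nrp2 transcript and the noncoding gene cannot be told apart as the source of its reads. In vcS5 this row stood 1.49 and 1.63 times as high as Nrp2, and in wild type 0.115 and 0.0238 times as high, so the ratio of the 2 rows differed between the groups.

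Ppm1j, which encodes a protein phosphatase, had 20.5 and 23.7 FPKM in vcS5, against 3.42 and 3.63 FPKM in wild type (log2 change 2.35). The log2 change was 2.25 without vcS5 replicate 2. Because Ppm1j shares its row span with Fam19a3, it is not independent of the choice of genes, and no p-value is given. Ppm1j was 3.21 and 3.10 times as high as Fam19a3 in vcS5 and 19.0 and 16.5 times as high in wild type. Cldn25, whose row lies 8927 bases upstream of Gpr15, rose by a smaller amount. It had 47.2 and 51.1 FPKM in vcS5 and 30.9 FPKM in each wild-type library (log2 change 0.65, SE 0.131, limma adjusted p = 0.0466). Its q-value in the authors' deposited table was 0.0792, and its limma adjusted p lay between 0.150 and 0.216 with each library left out in turn.

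**Figure D4:**
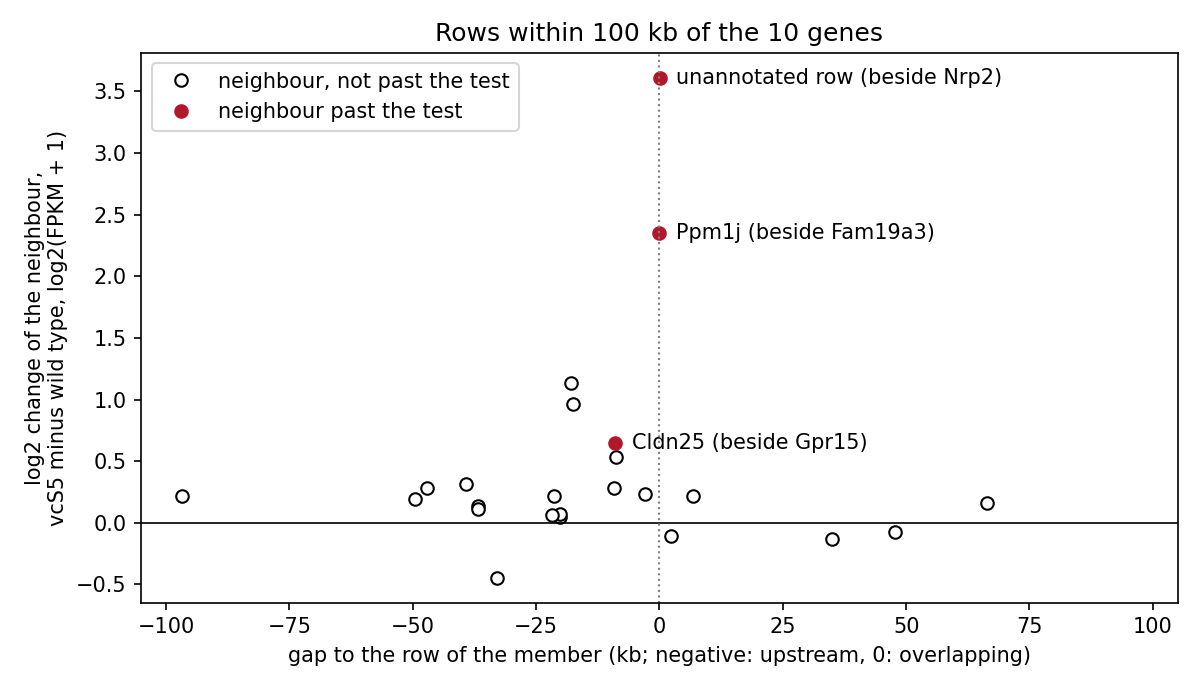
Log2 change, vcS5 minus wild type on the log2(FPKM + 1) scale, of the rows within 100 kb of a member against their distance in kb from it, upstream to the left, with filled points for rows past the limma test. The 3 filled points are the unannotated row beside Nrp2 at 3.61, Ppm1j at 2.35 and Cldn25 at 0.65, and the other 21 rows lie between -0.44 and 1.13. The row beside Nrp2 and Ppm1j are not independent of the choice of genes.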

How the data were processed

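RNA of flash-frozen spleen suspensions was extracted with Trizol and made into TruSeq v2 libraries, which do not mark strand, and sequenced as 50 bp single-end reads, per the labels' protocols. The authors deposited 1 table of FPKM values for the 4 libraries, with a q-value from their own comparison, per the file headers. The submitters' processing notes name Bowtie2 2.1.0, TopHat2 2.0.9, Cufflinks, Cuffdiff 2.1.1 and the mm10 build. Lengths and library sizes are divided out of FPKM, so read totals are not known, and counting error is not quantified. Only the relative worth of a read was estimated, from the steps between low values.

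Library sums of FPKM were 1239860 and 1219370 in vcS5 and 1349920 and 1469130 in wild type, and the 10 highest rows took 43.3% and 37.6% of the sum in vcS5 and 51.5% and 50.1% in wild type. The samples of a group are labelled as biological replicates. Values were transformed as log2(FPKM + 1). The fit over 14226 rows used limma 3.58.1 in R 4.3.3 with a variance trend, all 4 libraries and no covariate, two-sided, with Benjamini-Hochberg adjustment over all rows and a threshold of 0.05. It had 2 residual and 3.17 prior degrees of freedom. The code was also run on simulated data drawn from the fit's own variance model, which cannot show whether the real data meet that model. A filter at a mean of 1 FPKM removed 0 rows. Folds are ratios of mean FPKM.

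The 10 genes, the 13 lists of relatives, the markers and the motifs were chosen with earlier results of these data known. From each list, rows past the test were named, up to 4 by size, with the closest paralogs of the 10 genes and each neighbouring row past the test. In addition, Ahr, Efcab2, Trat1, Cpox and Myo1f were named after their values were seen. Gene symbols are those of the authors' deposited table, and names from GENCODE vM21 (GRCm38) were used where it gave none. Gene spans come from GENCODE and promoters from RefSeq (GRCm38.p6), which held 9 of the 10 genes. Alternatives were other pseudocounts, filters and scalings, no variance trend, a replicate block, other denominators, other windows and each library left out.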

Additional observations from a re-analysis of the deposited data

How the results depend on the processing

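All 10 genes were higher in vcS5 under each pseudocount, filter, scaling and left-out library tried, except that a filter at a mean of 5 FPKM kept 8 of them. Their median log2 change of 2.90 was 3.98 with a pseudocount of 0.1, and 2.77 to 3.03 with a library left out. The count of 9 genes with a higher ratio to Cd8a was 5 with 1 FPKM added to both genes, where Fam19a3 (-0.12), Wdr95 (-0.28), Pak6 (-0.029) and Dmrta1 (-0.034) changed sign, and 9 with each library left out. The Nrp2 ratio was 0.44 with Cd3e as denominator. With each library left out in turn, rises over all rows numbered 52 to 164 and falls 19 to 81, against 653 and 588, rises in the lists numbered 0 to 1 and falls 0 to 0, against 7 and 10, and neighbouring rises 1 to 2, against 3. Such fits leave 1 library in a group, which is assumed to vary like the other group. The neighbouring counts draw on the row beside Nrp2 and on Ppm1j, which are not independent of the choice of genes. Without them, 1 of 22 neighbouring rows rose with all libraries. STAT5 letters were found for 0 genes in the 250 bases before the start alone, and for 0 genes whose RefSeq start lies within 1 kb of the row, a limit set after seeing the data. Of the 17 list calls, 9 were kept under every setting that used all libraries, and 16 were lost with each library left out in turn. The 8 list calls lost under a setting with all libraries were those of Gata3, Sema4b, Cacna2d4, Myo3b, Lipe, Myo5a, Myo1f and Ccr9. The cause was not tested.

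Same-numbered libraries deviated together only weakly (r = 0.176 over 14226 rows, 2 pairs), and the labels give the numbers no meaning of pairing. With a replicate block, 579 rows rose and 449 fell, 5 list rows rose and 7 fell, and 3 neighbouring rows rose. These 3 include the row beside Nrp2 and that of Ppm1j, which are not independent of the choice of genes.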
